A study of Mus musculus with 25 samples.

Results

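Scavenger receptors, a family known for the uptake of modified lipoprotein, were followed as 7 genes, taken by symbol from the 23284 genes measured in whole mouse aorta. They are Msr1, Marco and Scara5 of class A, Cd36 of class B, Olr1 of class E, Scarf1 of class F and Stab1 of class H. All 7 symbols were found, 5 genes passed the filter of a mean of at least 1 FPKM over the libraries, and Olr1 and Marco did not. In short, Msr1 and Olr1 were highest in aortas of EKO mice after 22 weeks of Western diet, where Msr1 reached 36.9 and 41.4 FPKM. Cd36 was the most abundant member in every library that measured it, and Scarf1 was higher at 22 than at 6 weeks in EKO mice on chow. For Scarf1 the difference between the genotypes in that change did not pass. No comparison was called for Cd36, Stab1 or Scara5.

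Many scavenger receptors bind low-density lipoprotein once it has been oxidised or acetylated, together with many other polyanionic ligands such as dead cells and bacterial products. The LDL receptor is shut down when a cell is loaded with cholesterol, whereas uptake by scavenger receptors is not, and macrophages of the artery wall that keep taking up modified lipoprotein turn into foam cells. Endothelium, adipocytes and fibroblasts also carry members of the family, so whole-aorta RNA mixes several sources.

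EKO mice lack Apoe, the gene of apolipoprotein E, and DKO mice lack Apoe and Apoa1, the gene of apolipoprotein A-I, so that every group is without apolipoprotein E. The 8 groups were, in DKO and then in EKO mice, Western diet (WD) for 22 weeks, WD for 6 weeks, chow for 22 weeks and chow for 6 weeks. All were C57/BL6J, feeding began at 8 weeks of age, and there were 4 libraries for DKO on chow at 6 weeks and 3 for each other group. No mouse without the Apoe deletion was included, and each deletion is present in every cell of the mice that carry it. The EKO libraries but not the DKO libraries are described as a re-analysis of earlier samples, so that genotype and any difference in handling cannot be told apart.

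Levels are FPKM, read fragments scaled by transcript length and by the mapped total, so members can be compared with each other per length. The read depth behind each value is unknown. Replicate 2 of EKO on WD at 22 weeks, the partial library, lists at 0 nearly all expressed genes of chromosomes 5 (99.8%), 6 (100%) and 8 (100%), against 0.89%, 1.11% and 0% on chromosomes 1, 11 and 14. Its zeros were treated as missing, which leaves n = 2 in that group for Cd36, Olr1 and Msr1, and n = 3 for the other members. Apoe stood between 2.97 and 10.7 FPKM in DKO and between 3.75 and 20.7 FPKM in EKO libraries, and Apoa1 between 0.135 and 1.08 FPKM in DKO and between 0 and 1.97 FPKM in EKO libraries, so their levels did not separate the genotypes. Ppia, a housekeeping gene, ran from 1030 to 1348 FPKM in the 6 EKO libraries of 22 weeks and from 449.9 to 842 FPKM in the other 19. Median-ratio factors for all libraries lay between 0.934 and 1.11, and the part of the Ppia gap in the results at 22 weeks was not tested. Markers of macrophages, endothelium, smooth muscle, fibroblasts and adipocytes were above 0 in all 24 complete libraries.

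Over all libraries the members spanned a wide range of levels. Cd36 averaged 261 FPKM (110 to 473), Scara5 averaged 37.4 FPKM (21.2 to 56.8), and Stab1 averaged 24.8 FPKM (12.5 to 40.1). Scarf1 averaged 8.97 FPKM (4.82 to 13.3) and Msr1 averaged 6.63 FPKM (0.882 to 41.4). Marco and Olr1 were low, with medians of 0.107 and 0.264 FPKM. The highest library exceeded the lowest by 47.0 times for Msr1 and by 57.5 times for Olr1, which starts from a very low level, but by 2.68 to 4.29 times for Scara5, Scarf1, Stab1 and Cd36. When the 8 groups were ordered by mean level, the ranges of neighbouring groups overlapped in all 7 steps for Cd36, Marco, Stab1 and Scara5, and in 6 of 7 steps for Msr1, Olr1 and Scarf1.

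**Figure D1:**
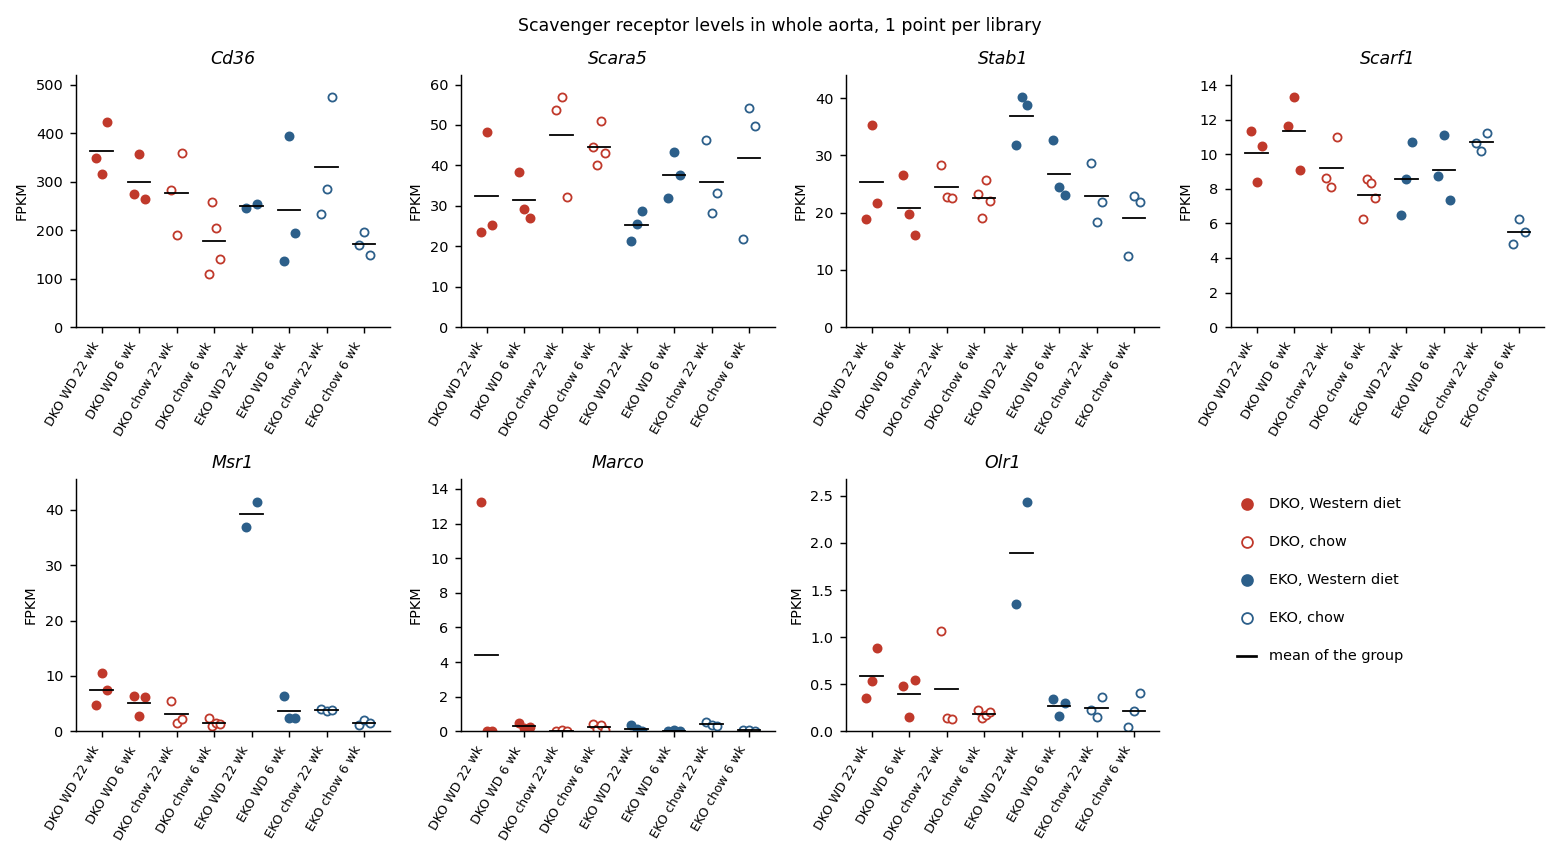
Level of each receptor in FPKM (vertical axes, linear and from 0) in every library, by group, with DKO in red and EKO in blue, filled for WD and open for chow, and a bar at the group mean. The 2 EKO libraries on WD at 22 weeks with an Msr1 value stand at 36.9 and 41.4 FPKM while all other libraries are at 10.5 FPKM or below, and Marco stands out in 1 DKO library at 13.3 FPKM.

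Msr1 encodes the macrophage scavenger receptor SR-A, which takes up acetylated and oxidised LDL. Its gene spans chr8:39543232-39642750 (minus strand, mm10 coordinates from the RefSeq annotation). In DKO aortas Msr1 was at 4.79, 10.5 and 7.40 FPKM on WD at 22 weeks, against 5.57, 1.44 and 2.26 FPKM on chow at 22 weeks. In DKO aortas at 6 weeks it was at 6.45, 2.86 and 6.16 FPKM on WD, against 2.42, 0.882, 1.52 and 1.30 FPKM on chow. The DKO groups overlapped at 22 weeks, but at 6 weeks every WD library was above every chow library. In EKO aortas Msr1 was at 36.9 and 41.4 FPKM on WD at 22 weeks, against 3.98, 3.71 and 3.77 FPKM on chow at 22 weeks. In EKO aortas at 6 weeks it was at 6.30, 2.43 and 2.37 FPKM on WD, against 1.15, 2.08 and 1.46 FPKM on chow. At both times the EKO groups did not overlap, and the gap at 22 weeks was the wider one. Summed macrophage markers were also highest there, at 5460 and 7272 FPKM against 966 to 1532 FPKM on chow, and in whole-aorta RNA more cells of a type and more RNA per cell cannot be told apart.

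Between WD and chow in EKO at 22 weeks the group means of Msr1 differed by 10.3 times (39.2 ± 3.19 FPKM on WD, SD, n = 2, and 3.82 ± 0.145 FPKM on chow, SD, n = 3). The log2 fold change was 3.06 ± 0.40 (SE), with a limma adjusted p of 4.27e-05. Msr1 was also higher on WD in DKO at 6 weeks, with a log2 fold change of 1.26 ± 0.34 (SE) and a limma adjusted p of 0.0410. Beside that call, macrophage markers summed to 466 to 1225 FPKM on WD and 257 to 461 FPKM on chow, with 3 of 10 called higher (median log2 fold change 0.90), and 5 of 6 lipid-laden macrophage markers were called higher (median 2.89), against 1.56% of all genes called higher, and their part in the Msr1 value was not tested. In DKO at 22 weeks the log2 fold change of 1.14 (95% interval 0.39 to 1.89) did not pass, with a limma adjusted p of 0.0958, nor did that of 0.79 in EKO at 6 weeks (95% interval 0.04 to 1.54, limma adjusted p = 0.211). The call in DKO at 6 weeks was lost without any one of 6 libraries, the 4 on chow and replicates 1 and 3 on WD, with limma adjusted p-values of 0.0630 to 0.129, and in 4 of 9 other alternatives, among them no filter (0.0622) and a pseudocount of 5 (0.0529).

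Along time, Msr1 on WD was higher at 22 than at 6 weeks in EKO by a log2 fold change of 3.19 ± 0.40 (SE, limma adjusted p = 8.84e-06), or 10.6 times between the means. In EKO on chow the log2 fold change of 0.93 (95% interval 0.17 to 1.68) stood at a limma adjusted p of 0.0503 although the 2 times did not overlap, and it passed in 7 of the 25 fits that leave out 1 library, with a pseudocount of 0.1 (0.0380) and with a mean of at least 5 FPKM (0.0475). In DKO the log2 fold changes were 0.48 on WD (95% interval -0.27 to 1.23) and 0.60 on chow (95% interval -0.11 to 1.30), and neither passed. Between genotypes on WD at 22 weeks, Msr1 averaged 7.55 ± 2.84 FPKM in DKO (SD, n = 3) and 39.2 ± 3.19 FPKM in EKO (SD, n = 2), which is 5.19 times less in DKO. Msr1 was thus lower in DKO there, with a log2 fold change of -2.29 ± 0.40 (SE) and a limma adjusted p of 3.61e-04, and without the DKO library that carries airway genes (replicate 1, below) the log2 fold change was -2.03 with a limma adjusted p of 0.00244. In the other 3 genotype comparisons its log2 fold change lay between -0.37 and 0.43 and none passed.

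Tested directly, the time difference of Msr1 on WD was smaller in DKO than in EKO by 2.71 on the log2 scale (SE 0.54, limma adjusted p = 0.00261). The diet difference in EKO was larger at 22 than at 6 weeks by 2.27 (SE 0.54, limma adjusted p = 0.00890). The diet difference at 22 weeks was smaller in DKO than in EKO by 1.92 (SE 0.54), with a limma adjusted p of 0.0491 that was past 0.05 in 18 of the 25 fits that leave out 1 library. Averaged over the 4 diet and time groups, the log2 fold change of DKO over EKO was -0.56 ± 0.18 (SE, limma adjusted p = 0.0371), and this call was lost in 13 of those 25 fits.

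Olr1 encodes LOX-1, a lectin-like receptor for oxidised LDL first described in endothelium. Its gene spans chr6:129479150-129507350 (minus strand). In DKO aortas Olr1 was at 0.359, 0.531 and 0.882 FPKM on WD at 22 weeks, against 1.06, 0.138 and 0.132 FPKM on chow at 22 weeks. In EKO aortas it was at 1.35 and 2.44 FPKM on WD at 22 weeks, against 0.223, 0.152 and 0.361 FPKM on chow at 22 weeks. The EKO groups did not overlap, and in DKO the highest library was one on chow. At 6 weeks Olr1 lay between 0.0423 and 0.542 FPKM in all 13 libraries of both genotypes.

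Because Olr1 fell under the filter, its tests come from the fit of all 20236 genes with any signal, and folds on log2(FPKM + 1) understate changes at such low levels. Olr1 was higher on WD than on chow in EKO at 22 weeks by a log2 fold change of 1.20 ± 0.22 (SE, limma adjusted p = 0.00134), with 13% of all genes called there. On WD in EKO it was higher at 22 than at 6 weeks by 1.16 ± 0.22 (SE, limma adjusted p = 9.28e-04), with 15.4% of all genes called. On WD at 22 weeks it was lower in DKO than in EKO by 0.85 on the log2 scale (log2 fold change -0.85, SE 0.22, limma adjusted p = 0.0115), with 16.4% of all genes called. The diet difference in EKO was larger at 22 than at 6 weeks by 1.13 (SE 0.30, limma adjusted p = 0.0204), with 12.9% of all genes called. The difference between the genotypes in the diet change at 22 weeks did not pass (-1.01, 95% interval -1.63 to -0.38, limma adjusted p = 0.0726), nor did that in the time change on WD (-0.97, 95% interval -1.60 to -0.35, limma adjusted p = 0.0544). With replicate 3 of EKO on WD at 22 weeks left out, 1 library remained in that group and the limma adjusted p was 0.198 for the genotypes and 0.0934 for diet by time, and without replicate 3 of EKO on chow at 6 weeks that for diet by time was 0.0557.

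The promoter windows of Olr1 and Cd36 are shown as a description. Olr1, like Msr1, was called higher on WD than on chow in EKO at the later time, and Cd36 was not. In DKO at the earlier time Msr1 was called higher on WD and Olr1 was not. No window was available for Msr1, so a motif shared by Msr1 and Olr1 could not be looked for. Whether any motif bears on these changes was not tested. RefSeq (GRCm38.p6, the sequence of mm10) gave a promoter window for Cd36, Olr1, Marco and Stab1, that is 4 of 7 members, and the 250 bases before each listed start are used. The listed starts of Olr1 and Cd36 lie 185 and 53063 bases inside the annotated spans of the genes, which have starts further upstream. The Olr1 window is chr6:129507166-129507415 and the Cd36 window chr5:17835897-17836146, both on the minus strand and printed 5′ to 3′. Capitals mark the AP-1 motif TGAGTCA and the nuclear receptor motif AGGTCA on either strand.
Olr1: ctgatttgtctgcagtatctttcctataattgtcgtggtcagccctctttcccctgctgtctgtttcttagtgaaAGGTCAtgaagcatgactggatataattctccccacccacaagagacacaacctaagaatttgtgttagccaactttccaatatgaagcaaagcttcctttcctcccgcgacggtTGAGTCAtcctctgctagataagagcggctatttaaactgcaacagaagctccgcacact
Cd36: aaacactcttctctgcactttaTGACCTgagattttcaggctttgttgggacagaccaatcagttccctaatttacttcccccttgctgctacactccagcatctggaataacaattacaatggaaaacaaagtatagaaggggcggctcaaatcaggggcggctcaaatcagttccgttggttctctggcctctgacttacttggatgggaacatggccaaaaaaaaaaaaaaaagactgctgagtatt
TGAGTCA was found in Olr1 from 60 bases before the start and in none of the other 3 windows, and 4.46% of 32851 mouse promoter windows of this length hold it. AGGTCA was found in Olr1 from 175 bases before the start and, as its reverse complement, in Cd36 from 228 bases before the start, and 14% of all windows hold it. The other motif searched, GAGGAAG of the PU.1 type, was found in Marco from 146 bases before the start and is held by 10.6% of all windows. Both strands were searched, and the matches did not overlap each other.

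Marco encodes a class A receptor of macrophages in lung, spleen and lymph node. Its gene spans chr1:120474538-120505024 (minus strand). Marco was at 13.3, 0.0375 and 0 FPKM in DKO on WD at 22 weeks, against 0.0295, 0.0522 and 0.0311 FPKM in DKO on chow at 22 weeks. All other libraries were at 0.550 FPKM or below, so that 1 library set the mean of its group. Among these low values the groups of 4 comparisons did not overlap, 2 with Marco higher (22 over 6 weeks in EKO on chow, DKO over EKO on WD at 6 weeks) and 2 with it lower (22 over 6 weeks in DKO on chow, DKO over EKO on chow at 22 weeks), at levels that cannot be given a counting error. None of these 4 differences passed, and how often other genes separate in this way was not tested. The log2 fold change of WD over chow in DKO at 22 weeks was 1.24 (95% interval -0.0038 to 2.49, limma adjusted p = 0.300), and without that library it was -0.027. The same library, replicate 1 of DKO on WD at 22 weeks, listed airway genes far above the other complete libraries, with Scgb1a1 at 6187 FPKM against at most 91.4 FPKM and Bpifa1 at 3434 FPKM against at most 14.8 FPKM. All 5 airway genes looked at were highest there, summing to 10478 FPKM against 4.51 to 113 FPKM elsewhere, and its B cell markers summed to 60.4 FPKM against 2.19 to 27.6 FPKM. The 4 alveolar genes looked at were split. In that library Sftpd was at 13.2 FPKM against at most 0.643 FPKM elsewhere, and Sftpa1 at 3.43 against at most 0.916 FPKM. Sftpc, at 0.906 against up to 18.7 FPKM, and Sftpb, at 0.935 against up to 1.64 FPKM, were not highest there. The airway genes were chosen after this library was seen, and their part in the Marco value was not tested.

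Scara5 encodes a class A receptor that binds ferritin and is found on fibroblasts and epithelia. Its gene spans chr14:65666403-65764826 (plus strand). In DKO at 22 weeks Scara5 was at 23.5, 48.2 and 25.2 FPKM on WD, against 53.6, 56.8 and 32.1 FPKM on chow. In DKO at 6 weeks it was at 38.3, 29.1 and 27.0 FPKM on WD, against 44.5, 40.0, 50.9 and 43.2 FPKM on chow. In EKO at 22 weeks it was at 21.2, 25.6 and 28.7 FPKM on WD, against 46.3, 28.3 and 33.2 FPKM on chow. The groups overlapped at 22 weeks in both genotypes and were apart in DKO at 6 weeks. In EKO at 6 weeks Scara5 was at 32.0, 43.2 and 37.7 FPKM on WD, against 21.7, 54.1 and 49.8 FPKM on chow, with the WD libraries inside the range of chow. The log2 fold changes of WD over chow were -0.58 and -0.50 in DKO at 22 and 6 weeks and -0.48 and -0.06 in EKO at 22 and 6 weeks, and none passed. In EKO on WD, Scara5 averaged 25.2 ± 3.78 FPKM at 22 weeks and 37.6 ± 5.62 FPKM at 6 weeks (SD, n = 3 each) without overlap, but the log2 fold change of -0.56 (95% interval -1.20 to 0.08) did not pass, with a limma adjusted p of 0.224.

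Cd36 encodes the class B receptor for oxidised LDL and long-chain fatty acids, used by macrophages, adipocytes, muscle and capillary endothelium. Its gene spans chr5:17781690-17888959 (minus strand). In DKO Cd36 was at 348, 316 and 423 FPKM on WD at 22 weeks, against 282, 190 and 358 FPKM on chow at 22 weeks. In DKO at 6 weeks it was at 275, 358 and 263 FPKM on WD, against 110, 258, 205 and 140 FPKM on chow. In EKO at 22 weeks it was at 246 and 254 FPKM on WD, against 234, 284 and 473 FPKM on chow. The group in which Msr1 was highest therefore held Cd36 at an intermediate level, inside the range of EKO on chow at the same time. In EKO at 6 weeks Cd36 was at 136, 395 and 194 FPKM on WD, against 169, 196 and 148 FPKM on chow.

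No comparison of Cd36 passed in the fit of all libraries. In DKO at 6 weeks every WD library was above every chow library, with a log2 fold change of 0.80 (95% interval 0.10 to 1.50, limma adjusted p = 0.144). In EKO on chow every library at 22 weeks was above every library at 6 weeks, with a log2 fold change of 0.89 (95% interval 0.14 to 1.64, limma adjusted p = 0.0583), and it passed in 5 of the 25 fits that leave out 1 library, with limma adjusted p-values of 0.0297 to 0.04999. On WD at 22 weeks every DKO library was above both EKO libraries, with means of 362 FPKM in DKO and 249.9 FPKM in EKO and a log2 fold change of 0.52 (95% interval -0.31 to 1.36, limma adjusted p = 0.401). In EKO at 22 weeks the log2 fold change of WD over chow was -0.34 (95% interval -1.17 to 0.50). Summed adipocyte markers stood at 2225 and 2517 FPKM in EKO on WD at 22 weeks. On chow in EKO they stood at 5216 to 7404 FPKM at 22 weeks and 2086 to 2353 FPKM at 6 weeks. In DKO at 22 weeks their median was lower on WD (3159 against 3896 FPKM, overlapping) while mean Cd36 was higher (362 against 277 FPKM). In DKO at 6 weeks both were higher on WD (marker medians of 3259 against 2279 FPKM, overlapping). Of 7 adipocyte markers, 0 were called higher and 5 lower on WD in EKO at 22 weeks, against 10.4% of all genes called higher and 9.14% lower. At 22 weeks over 6 weeks in EKO on chow, 5 were called higher and 0 lower, against 25.4% of all genes called higher and 11.2% lower. Their part in the Cd36 values was not tested.

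Scarf1 encodes SREC-I, an endothelial receptor for acetylated LDL and dying cells. Its gene spans chr11:75513489-75526582 (plus strand). In EKO on chow Scarf1 was at 10.6, 10.2 and 11.3 FPKM at 22 weeks, against 4.82, 6.27 and 5.48 FPKM at 6 weeks. In EKO on WD it was at 6.48, 8.60 and 10.7 FPKM at 22 weeks, against 8.77, 11.1 and 7.38 FPKM at 6 weeks. The times were apart on chow and overlapped on WD. On chow in EKO, Scarf1 was higher at 22 than at 6 weeks by a log2 fold change of 0.85 ± 0.17 (SE, limma adjusted p = 0.00138), or 1.94 times between the means, and 36.6% of all genes were called there. In EKO on chow, at 22 weeks against 6 weeks, summed markers stood at 5216 to 7404 against 2086 to 2353 FPKM for adipocytes, 966 to 1532 against 310 to 474 FPKM for macrophages, 15028 to 33807 against 5793 to 7521 FPKM for erythroid cells and 3993 to 5652 against 8885 to 10488 FPKM for smooth muscle, and their part in the Scarf1 value was not tested. The diet difference in EKO was lower at 22 than at 6 weeks by 0.93 on the log2 scale (SE 0.24, limma adjusted p = 0.0141), with log2 fold changes of WD over chow of -0.31 at 22 weeks and 0.62 at 6 weeks. Without replicate 1 of EKO on WD at 22 weeks that limma adjusted p was 0.0664, and with array weights the difference was -0.58 with a limma adjusted p of 0.0538.

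In DKO at 22 weeks Scarf1 was at 11.4, 8.39 and 10.5 FPKM on WD, against 8.62, 8.08 and 11.0 FPKM on chow. In DKO at 6 weeks it was at 11.7, 13.3 and 9.11 FPKM on WD, against 6.28, 8.58, 8.32 and 7.50 FPKM on chow. At 6 weeks all WD libraries were above all chow libraries in both genotypes, but neither difference passed, with log2 fold changes of 0.50 in DKO (95% interval 0.17 to 0.84, limma adjusted p = 0.0680) and 0.62 in EKO (95% interval 0.26 to 0.98, limma adjusted p = 0.0818). In DKO on chow the log2 fold change of 22 over 6 weeks was 0.24 (95% interval -0.10 to 0.58) and did not pass. The difference between the genotypes in the time change on chow was -0.61 (95% interval -1.11 to -0.11) and did not pass (limma adjusted p = 0.190). EKO on chow at 6 weeks was the lowest of the 8 groups. DKO on chow at 6 weeks was above it without overlap, but that difference did not pass (log2 fold change 0.41, limma adjusted p = 0.837). Of 8 endothelial markers, 1 was called higher and 0 lower at 22 than at 6 weeks in EKO on chow, against 25.4% of all genes called higher and 11.2% lower.

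Stab1 encodes stabilin-1, a receptor for acetylated LDL on resident tissue macrophages and sinusoidal endothelium. Its gene spans chr14:31139017-31168651 (minus strand). In EKO at 22 weeks Stab1 was at 31.9, 40.1 and 38.8 FPKM on WD, against 28.6, 18.3 and 21.8 FPKM on chow. In DKO at 22 weeks it was at 18.8, 35.2 and 21.8 FPKM on WD, against 28.4, 22.7 and 22.5 FPKM on chow. The EKO groups were apart and the DKO groups overlapped. In EKO at 6 weeks Stab1 was at 32.7, 24.5 and 23.1 FPKM on WD, against 12.5, 22.9 and 21.9 FPKM on chow, again without overlap. In DKO at 6 weeks it was at 26.6, 19.8 and 16.1 FPKM on WD, against 23.2, 19.1, 25.6 and 22.0 FPKM on chow.

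The log2 fold change of WD over chow for Stab1 in EKO at 22 weeks was 0.68 (95% interval 0.18 to 1.18) and missed the threshold, with a limma adjusted p of 0.0526. Without the partial library, whose Stab1 value of 40.1 FPKM is among the measured chromosomes, it was 0.62 with a limma adjusted p of 0.116, and without the DKO library that carries airway genes the limma adjusted p was 0.0436. In DKO at 22 weeks it was -0.0015 (95% interval -0.50 to 0.50), and the difference between the genotypes was -0.68 (95% interval -1.39 to 0.03, limma adjusted p = 0.245). On WD at 22 weeks Stab1 averaged 25.3 ± 8.76 FPKM in DKO and 36.9 ± 4.43 FPKM in EKO (SD, n = 3 each), a log2 fold change of -0.57 with a limma adjusted p of 0.101. The resident macrophage markers, the cells Stab1 is known from, were called higher in 2 of 6 for WD in EKO at 22 weeks and summed to 305 and 363 FPKM there, against 215 to 332 FPKM on chow. Of all genes 19.5% were called in that comparison, in either direction.

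**Figure D2:**
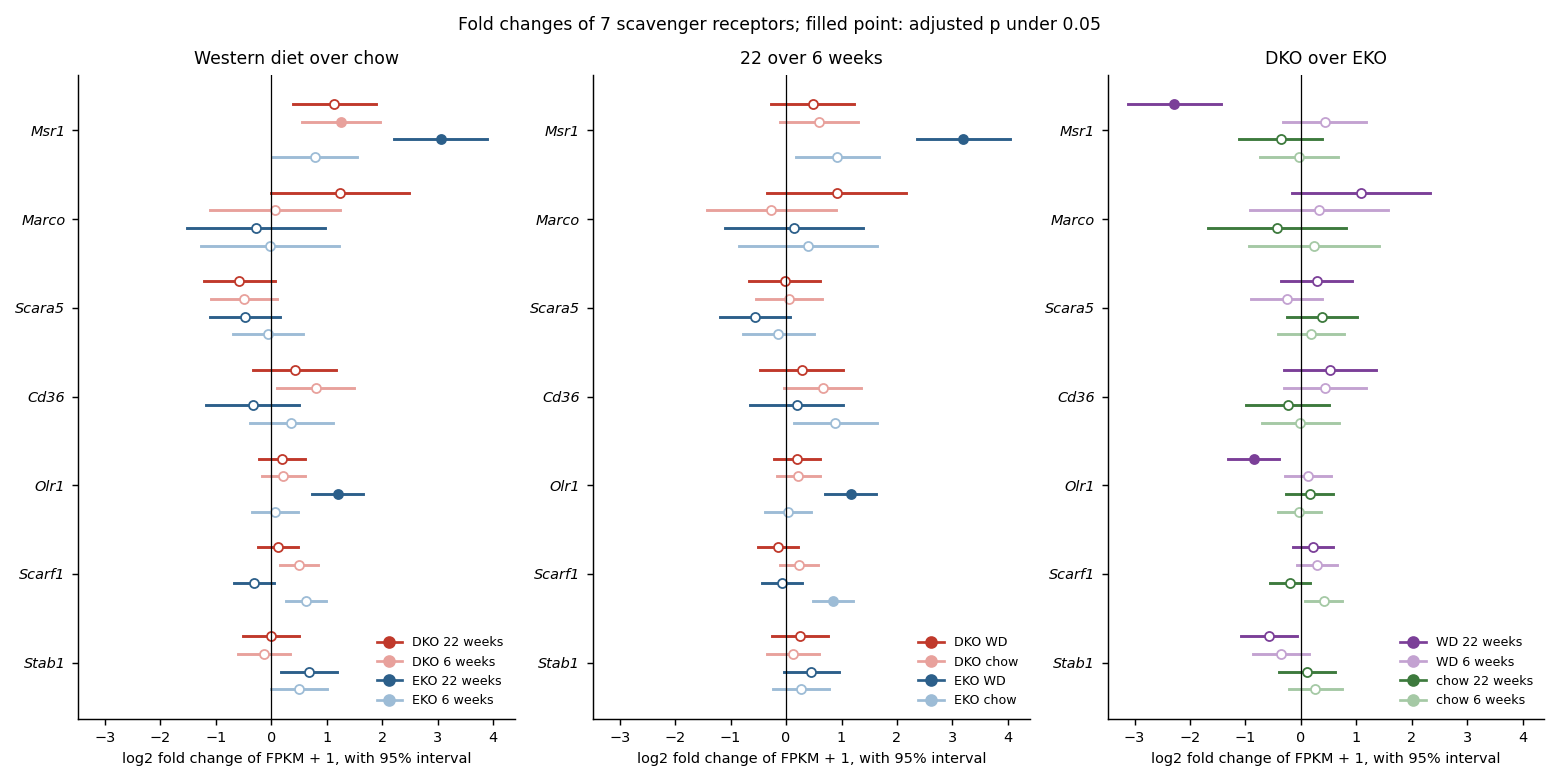
Log2 fold change of FPKM + 1 with its 95% interval for each receptor (rows) in the 12 comparisons, from left to right WD over chow, 22 over 6 weeks and DKO over EKO, with filled points where the limma adjusted p was under 0.05 (Olr1 and Marco from the fit with no filter). Higher and filled are Msr1 and Olr1 in EKO for WD over chow at 22 weeks and 22 over 6 weeks on WD. Also higher and filled are Msr1 in DKO for WD over chow at 6 weeks and Scarf1 in EKO on chow over time. Msr1 and Olr1 are lower and filled for DKO over EKO on WD at 22 weeks. Some open points also have intervals apart from 0, and the intervals of Scara5 reach 0 in all 12.

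Counted over the 5 members tested, the calls were few and can be set beside those of all 12849 genes. For WD over chow, 0 of 5 members were called in DKO at 22 weeks (1.75% of all genes), 1 in DKO at 6 weeks (5.2%), 1 in EKO at 22 weeks (19.5%) and 0 in EKO at 6 weeks (0.335%). For 22 over 6 weeks, 0 of 5 were called in DKO on WD (0.226% of all genes) and on chow (0.0545%), 1 in EKO on WD (19.2%) and 1 in EKO on chow (36.6%). For DKO over EKO, 1 of 5 was called on WD at 22 weeks (21.5% of all genes), and 0 on WD at 6 weeks (0.148%), chow at 22 weeks (7.84%) and chow at 6 weeks (0.14%). Where the background was near 1 in 5 genes or above, 1 call of 5 members is near that background.

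For the differences between comparisons, 1 of 5 members was called for diet by genotype at 22 weeks (4.39% of all genes) and 0 at 6 weeks (0.0311%). For time by genotype, 1 was called on WD (8.97%) and 0 on chow (3.87%), and for diet by time 0 were called in DKO (0.0389%) and 2 in EKO (21.6%). For the mean genotype difference 1 of 5 was called (17.9%). At an unadjusted p under 0.05, the 10 comparisons and differences with no call held 0 to 2 members each. Comparisons that share a group, such as EKO on WD at 22 weeks, are not independent of each other.

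Macrophage markers moved beside Msr1 and Olr1. The 10 markers, at the sums given above in EKO at 22 weeks, summed to between 257 and 1354 FPKM in the DKO libraries, and none of the 10 was at 0 in any complete library. All 10 were called higher on WD in EKO at 22 weeks, with a median log2 fold change of 1.93, against -0.06 over all genes, of which 10.4% were called higher and 9.14% lower. On WD at 22 weeks 9 of 10 were called lower in DKO than in EKO, against 21.5% of all genes called in either direction. Set against the mean log2(FPKM + 1) of these markers in the same library, Msr1 stood 1.92 and 1.84 below it in EKO on WD at 22 weeks (differences of -1.92 and -1.84), and between -3.50 and -2.06 in the other 22 complete libraries. The difference for Msr1 was thus closest to 0 in the group where its level was highest. For Olr1 the differences were -5.85 and -5.54 there and between -5.53 and -3.56 elsewhere, and for Stab1 they were -2.05 and -2.01 there and between -0.96 and 0.77 elsewhere. For Cd36 they were 0.67 and 0.86 there and between 1.92 and 4.27 elsewhere. At its low level log2(FPKM + 1) understates changes of Olr1, so the Olr1 differences largely mirror the marker mean. They cannot show whether Olr1 rose less than the markers, and its mean FPKM was 7.73 times higher on WD than on chow in EKO at 22 weeks. These differences are descriptions, and how much of the Msr1 and Olr1 changes the macrophage content carries was not tested.

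**Figure D3:**
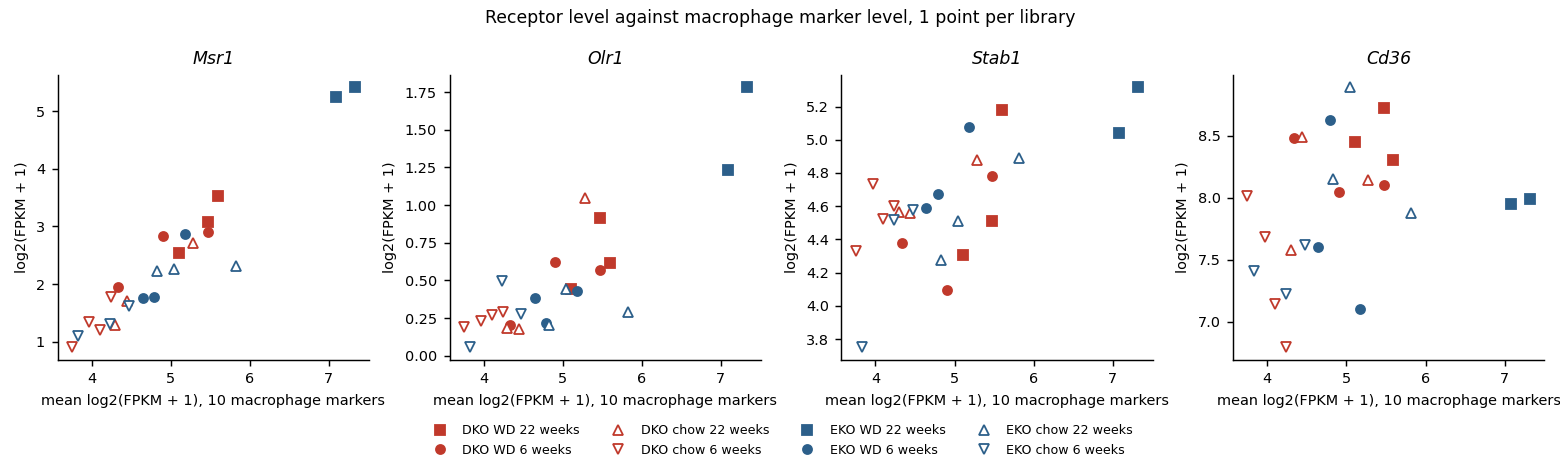
Level of Msr1, Olr1, Stab1 and Cd36 as log2(FPKM + 1) (vertical axes, each on its own scale) against the mean log2(FPKM + 1) of 10 macrophage markers (horizontal axes) in the 24 complete libraries. The 2 EKO libraries on WD at 22 weeks lie at the far right in every panel, at the top for Msr1 and Olr1 and in the middle of the range for Cd36.

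Other scavenger receptors moved in part with Msr1. Of 11 tested, 6 were called higher on WD in EKO at 22 weeks and 0 lower, with a median log2 fold change of 0.73. Of all genes 19.5% were called there in either direction. On WD at 22 weeks 0 were called higher and 6 lower in DKO than in EKO, against 21.5% of all genes called in either direction. Cd68, a lysosomal class D receptor of macrophages that is also one of the markers above, ranged from 267 to 443 FPKM on WD and from 37.4 to 68.9 FPKM on chow in EKO at 22 weeks (log2 fold change 2.65, limma adjusted p = 1.32e-04). Cxcl16, a class G receptor and chemokine, ranged from 55.5 to 66.7 FPKM on WD and from 7.46 to 13.3 FPKM on chow (log2 fold change 2.47, limma adjusted p = 1.32e-05). Scara3, a class A relative, ranged from 54.8 to 61.5 FPKM on WD and from 23.7 to 30.1 FPKM on chow (log2 fold change 1.10, limma adjusted p = 0.0118). Scarb2, the lysosomal class B relative of Cd36, ranged from 68.5 to 76.9 FPKM on WD and from 61.5 to 71.5 FPKM on chow (log2 fold change 0.14, limma adjusted p = 0.594). In DKO at 22 weeks 0 of the 11 were called for WD over chow (0.841% of all genes higher and 0.911% lower), and in DKO at 6 weeks 2 were called higher and 1 lower (1.56% of all genes higher and 3.63% lower).

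The LDL receptor family and its helpers split. Of 7 tested, 3 were called higher and 1 lower on WD in EKO at 22 weeks, against 19.5% of all genes called in either direction, while their median log2 fold change was -0.62. Lrp1, a large endocytic receptor, had a log2 fold change of 0.90 (limma adjusted p = 0.0228) and its chaperone Lrpap1 one of 0.55 (limma adjusted p = 0.0168). Sort1, the sorting receptor sortilin, ranged from 17.8 to 19.3 FPKM on WD and from 27.5 to 38.4 FPKM on chow, with a log2 fold change of -0.70 that did not pass (limma adjusted p = 0.0534).

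Uptake partners were called higher in 5 of 7 on WD in EKO at 22 weeks (median log2 fold change 1.27) and in 0 of 7 in DKO at 22 weeks. Of all genes 19.5% were called in EKO and 1.75% in DKO, in either direction. Fcer1g, the signalling chain of many activating receptors, ranged from 153 to 206 FPKM on WD and from 32.3 to 70.8 FPKM on chow in EKO (log2 fold change 2.03, limma adjusted p = 4.81e-04). Cd9, a tetraspanin found in complex with CD36, had a log2 fold change of 1.43 (limma adjusted p = 0.00506). Tlr4 and the kinase Lyn, both used in signalling downstream of oxidised LDL, had log2 fold changes of 1.12 (limma adjusted p = 3.56e-04) and 1.27 (limma adjusted p = 4.54e-04), while the integrin chain Itgb1 had 0.47 and did not pass (limma adjusted p = 0.203).

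Regulators of these genes moved in both directions. Of 8 tested, 3 were called higher and 1 lower on WD in EKO at 22 weeks, against 19.5% of all genes called in either direction, with a median log2 fold change of -0.03. Nfe2l2, the oxidative stress regulator NRF2, had a log2 fold change of 0.49 (limma adjusted p = 0.00465). Cebpb, a transcription factor of macrophages and adipocytes, ranged from 11.5 to 18.4 FPKM on WD and from 56.9 to 68.5 FPKM on chow. It was thus lower on WD by 1.99 on the log2 scale (limma adjusted p = 0.00159). In EKO at 6 weeks Cebpb ranged from 32.5 to 48.3 FPKM on WD and from 11.8 to 13.2 FPKM on chow. Pparg, the fatty acid receptor that induces Cd36 in macrophages, ranged from 27.8 to 52.4 FPKM on WD and from 56.9 to 112 FPKM on chow (log2 fold change -0.90, limma adjusted p = 0.182).

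Genes for the lipid once taken up were called higher in 8 of 10 on WD in EKO at 22 weeks, with a median log2 fold change of 1.56 (19.5% of all genes called in either direction). They were called higher in 1 of 10 in DKO at 22 weeks (0.841% of all genes called higher) and in 4 of 10 in DKO at 6 weeks (1.56% of all genes called higher). Soat1, which esterifies cholesterol, and Nceh1, which hydrolyses the ester, had log2 fold changes of 1.96 (limma adjusted p = 1.79e-05) and 2.30 (limma adjusted p = 9.43e-06) in EKO at 22 weeks. Fabp5, a fatty acid carrier of lipid-laden macrophages, ranged from 673 to 933 FPKM on WD and from 173 to 177 FPKM on chow there. Fabp4, the carrier shared by adipocytes and macrophages, had a log2 fold change of -0.90 and the lipid droplet protein Plin2 one of 0.40, and neither passed (limma adjusted p = 0.138 and 0.528). Between genotypes on WD at 22 weeks, 0 of the 10 were called higher and 8 lower in DKO, against 2.92% and 18.5% of all genes.

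**Figure D4:**
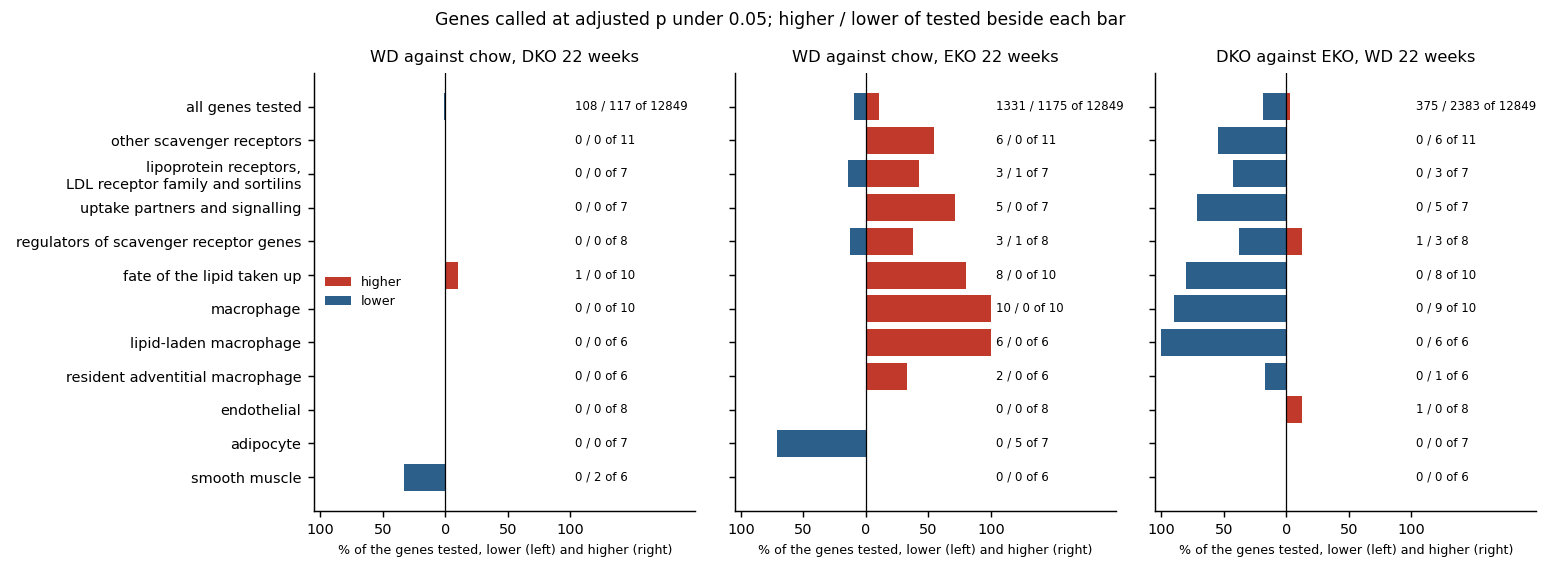
Share of the genes of each list (rows) called lower (left, blue) or higher (right, red) at limma adjusted p under 0.05, for WD over chow in DKO and in EKO at 22 weeks and for DKO over EKO on WD at 22 weeks, with the counts beside each bar. At 22 weeks all 10 macrophage and 6 lipid-laden macrophage markers are called higher on WD in EKO and 0 in DKO (median log2 fold changes there 0.78 and 1.27), and 9 and 6 of them are lower in DKO than in EKO on WD. Of all genes 1.75%, 19.5% and 21.5% are called in the panels from left to right, in either direction.

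The genes whose levels were most like each member over the 24 complete libraries differed from member to member. For Msr1 they were Plek (r = 0.985), an adaptor of blood cells, Lilrb4 (r = 0.980) and Gp49a (r = 0.979), near-identical receptor genes whose reads may be shared. For Cd36 they were Bnip3 (r = 0.924) and Cebpg (r = 0.897), with an uncharacterised RIKEN gene between them (r = 0.910). For Scarf1 they were Akr1b10 (r = 0.918) and Fam108c (r = 0.906), for Stab1 they were Man2b2 (r = 0.904), Lrp1 (r = 0.874) and C1ra (r = 0.874), and for Scara5 they were Adamtsl1 (r = 0.880), Igfbp6 (r = 0.860) and Entpd2 (r = 0.850). Among the members themselves the highest correlations were between Cd36 and Scarf1 (r = 0.739) and between Msr1 and Stab1 (r = 0.631), and that between Msr1 and Scara5 was -0.429. These are Pearson correlations of log2(FPKM + 1), given as descriptions, and the libraries share groups and scaling.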

How the data were processed

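Whole-aorta RNA was sequenced as unpaired reads in 25 libraries. The authors deposited FPKM for 23284 genes, made with Cufflinks after alignment to mm10 (version and gene models not given in the sources used here). Among the tools in the submitters' processing notes are SAMtools 0.1.19, TopHat 1.3.2 and Bowtie 0.12.8, as well as Cuffdiff. FPKM are scaled by length and mapped total and hold no read counts, so depth and counting error are unknown and no count test was run. Which flowcell each library ran on is not stated, so batch and group cannot be told apart. Whether each library is 1 animal is not labelled, and p-values measure the spread between these libraries.

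Values were taken as log2(FPKM + 1). limma 3.58.1 (R 4.3.3) was fitted with 1 mean per group over 25 libraries, with trend and robust variance estimation, on 12849 genes averaging 1 FPKM or more. Zeros of the partial library were set to missing, which touches 8827 of these genes and drops that library from their fits. Adjusted p-values are Benjamini-Hochberg over all genes within each of 12 comparisons, 6 differences between comparisons and 1 mean genotype difference, with 0.05 as the threshold and no fold threshold. Olr1 and Marco, under the filter, were taken from a fit of 20236 genes with no filter, a choice made after seeing the data. The fit was checked on simulated data with known changes. Tables and figures used Python 3.11.15, pandas 2.3.3 and matplotlib 3.10.9, and sequences, positions and synonyms came from RefSeq GRCm38.p6.

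The members and gene lists were chosen with earlier results of these data known. Named list genes are the 3 of highest mean FPKM and the 2 of smallest p in WD over chow in EKO at 22 weeks, from each list. Like genes are the 3 with the highest Pearson r per tested member. Some genes that these rules select are not reported here. Other marker lists (lymphatic endothelium, skeletal muscle, erythroid and T cells) were summed and counted as well. On WD in EKO at 22 weeks 1 of 3 lymphatic endothelial markers was called higher and 0 lower, 0 of 6 skeletal muscle and 0 of 3 T cell markers were called, and 0 of 5 erythroid markers were called higher and 1 lower. Of all genes 19.5% were called there in either direction. Alternatives were pseudocounts of 0.1 and 5, other filters, median-ratio rescaling, array weights, a plain variance estimate, zeros kept as deposited, a replicate block and leaving out each library. The replicate numbers were not treated as pairs in the main fit.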

Additional observations from a re-analysis of the deposited data

Results flagged for a closer look

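The results below were singled out because a change in one group differed from the same change in another by a direct test in limma. For Msr1 the diet difference at 22 weeks was smaller in DKO than in EKO (difference -1.92 on the log2 scale), the time difference on WD was smaller in DKO than in EKO (-2.71), and the diet difference in EKO was larger at 22 than at 6 weeks (2.27). For Olr1 the diet difference in EKO was likewise larger at 22 than at 6 weeks (1.13, from the fit with no filter). For Scarf1 the diet difference in EKO was lower at 22 than at 6 weeks (-0.93). The values of EKO on WD at 22 weeks enter all 5, with 2 libraries for Msr1 and Olr1 and 3 for Scarf1. No library of DKO on chow at 6 weeks, the only group of 4, stood far from the others for any member.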

How the results depend on the processing

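Replicate numbers were not treated as pairs in the main fit. Over 4022 genes with no missing value, deviations of same-numbered libraries correlated with a median r of 0.0150 over 84 pairs (lowest -0.510, highest 0.490). Of these pairs 32 were over 0.1, and 8 of 25 libraries correlated best with their own number. Whether some numbers share a batch was not tested. With the replicate block 1 member was called for WD over chow in place of 2, because Msr1 in DKO at 6 weeks was lost (limma adjusted p = 0.0989). With array weights 4 were called for WD over chow and 2 for DKO over EKO. With no filter, where all 7 members are counted, 2 were called for DKO over EKO, Msr1 and Olr1. With the zeros of the partial library kept as deposited, the counts were 0 for WD over chow, 1 for 22 over 6 weeks, 0 for DKO over EKO and 0 for the differences between comparisons. For Msr1 and Olr1, EKO on WD at 22 weeks then holds 2 high values and a 0, whereas Scarf1 diet by time in EKO kept its value of -0.93 at a limma adjusted p of 0.111, and the cause was not tested. Leaving out 1 library gave 1 to 3 calls for WD over chow, 2 to 4 for 22 over 6 weeks, 1 to 2 for DKO over EKO and 2 to 4 for the differences. The Marco log2 fold change of WD over chow in DKO at 22 weeks ranged from -0.027, without replicate 1 on WD, to 1.89. Apart from the kept zeros, Msr1 on WD in EKO at 22 weeks (WD over chow, 22 over 6 weeks, and DKO over EKO) held its calls under all alternatives and all 25 left-out libraries, as did Scarf1 over time in EKO on chow with the kept zeros included. The diet by genotype call of Msr1 at 22 weeks was lost in 6 of 9 alternatives and its mean genotype difference in 5 of 9. With a pseudocount of 0.1, Olr1 lost its calls for DKO over EKO (limma adjusted p = 0.112) and for diet by time (limma adjusted p = 0.106). Stab1 on WD in EKO at 22 weeks gained a call with a pseudocount of 5 (limma adjusted p = 0.0453), a mean of at least 5 FPKM (0.0468), rescaling (0.0326) and array weights (0.0107). Depth is unknown, so the precision of the low Olr1 and Marco values cannot be given.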
